A study of Drosophila melanogaster with 6 samples.

Results

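Clbn and 9 genes whose products deal with stalled ribosomes or act at neighbouring steps were followed in whole Drosophila melanogaster embryos by Affymetrix array. The 10 genes were chosen by name, as Clbn (Caliban, CG11847) and its partners Ltn1, TER94, Npl4, Ufd1-like, pelo, HBS1, eRF1, Rack1 and eIF6. Each had 1 probe set among those that carry a single gene symbol, so the 10 genes were read by 10 of 18769 probe sets and stood among 11982 named genes. In the array annotation 9 were found by their own symbol, and Ufd1-like was found as Ufd1, for which the RefSeq gene table lists Ufd1-like as a synonym. There were 3 arrays from a clbn knock-out stock and 3 from w1118, the white-eyed stock used as wild type. The labels give w1118 as the strain background of both groups, the embryos were 0 to 24 h old, and the flies were kept at 25 °C. The labels do not describe the deleted part of clbn, any backcross, or whether the 3 arrays of a genotype came from separate collections. The p-values therefore measure only the spread between these arrays, part of which may be technical.

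Ribosome-associated quality control deals with ribosomes that stop inside a message. Pelo and its GTPase partner HBS1 bind the empty site of the stalled ribosome and help to split it, which leaves the large subunit holding an unfinished chain on a transfer RNA. Clbn is the fly homologue of human NEMF and yeast Rqc2, which bind that large subunit and hold it for the ubiquitin ligase Listerin, encoded in the fly by Ltn1. The ATPase TER94, known as p97 or VCP in mammals, works with the adaptors Npl4 and Ufd1 to draw the tagged chain out. A release factor (eRF1), a scaffold on the small subunit (Rack1) and a factor that keeps free large subunits from joining small ones (eIF6) act at neighbouring steps.

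All values are log2 expression values as the authors deposited them, and a difference is always clbn knock-out minus w1118 on that scale. Array medians lay between 6.17 and 6.36 and first quartiles between 4.28 and 4.36. Arrays correlated over all probe sets at 0.994 to 0.997 within the knock-out, 0.996 to 0.998 within w1118 and 0.986 to 0.995 between genotypes. Knock-out array 1 stood apart in its RNA quality controls, where the 3′ minus 5′ signal was 1.24 log2, beside 0.667 and 0.729 in the other knock-out arrays and 0.723 to 0.779 in w1118. The number of arrays limits the precision. In whole embryos, fewer cells that express a gene and less RNA per cell cannot be told apart.

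Clbn, the targeted gene, fell in the knock-out. Its probe set read 5.42, 5.27 and 5.14 in the 3 knock-out arrays, against 7.86, 8.25 and 8.44 in the 3 w1118 arrays. The genotypes did not overlap, and the nearest arrays of each were 2.44 log2 apart. The difference was −2.91 (SE 0.15, 95% interval −3.26 to −2.56), a fall of 7.51-fold with an interval of 5.90-fold to 9.56-fold and an adjusted p of 7.01e-05 by limma. All knock-out readings lay between the first quartile and the median of their arrays. No detection calls were used, so whether a signal remains there above background was not tested, and the fold is uncertain for that reason. Where the probes lie relative to the deletion was not analysed here. If they lie outside it, the value is not a direct check of the labels. Clbn ranked 8 among the 315 genes called lower.

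Clbn also varied within w1118. The SD of its 3 w1118 arrays was 0.298, against a median of 0.0951 over all genes, and 3.76% of genes had a w1118 SD at least as large. In the knock-out its SD was 0.136, against a median of 0.118 over all genes. Within the pairs of arrays that share a replicate number the difference was −2.44, −2.98 and −3.30.

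None of the 9 partners was called changed by limma at an adjusted p below 0.05, so 1 of the 10 genes was called, against 4.51% of all 11982 genes (1.88% higher and 2.63% lower) and 3.74% of the 3901 genes at least as bright as the dimmest partner. Of the 9 partners, 4 had an unadjusted p below 0.05, against 22.8% of all genes, and 3 of these lay above 0, against 11.8% of all genes. Across all probe sets 668 (3.56%) were called, and 190 to 607 were called when a single array was left out, with the lowest count without w1118 array 1. All 9 partners were bright on these arrays, with readings from 8.87 to 13.73, far from the first quartile. The differences of the 9 lay between −0.23 and 0.23, with a median of 0.05, against a median of 0.02 over all genes and 0.05 over the genes at least as bright as the dimmest partner. The 95% intervals of all 9, not adjusted for the number of genes, lay inside −0.5 and 0.5, against 76.2% of all genes. Changes larger than that were thus outside the intervals, but smaller ones were not, and a p that misses the threshold does not show that the genotypes were alike.

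**Figure D1:**
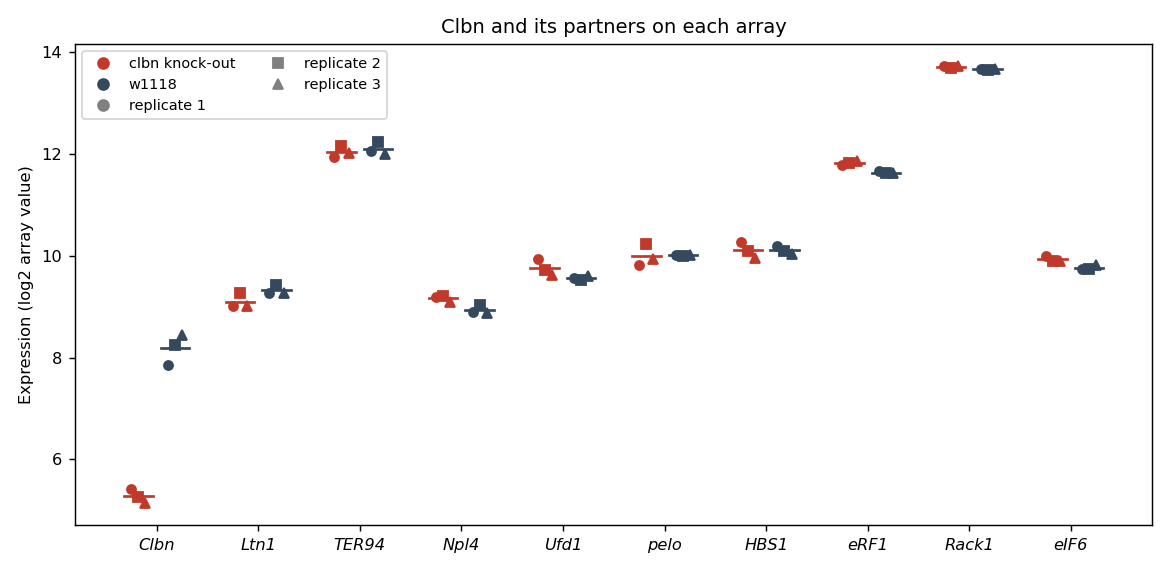
Log2 array values of the 10 genes on each of the 6 arrays, with clbn knock-out in red on the left and w1118 in dark blue on the right of each gene. The symbols mark the replicate number and the bars the mean of 3 arrays. Clbn reads 5.14 to 5.42 in the knock-out and 7.86 to 8.44 in w1118, while each of the other 9 genes has genotype means within 0.23 of each other.

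The ligase that Clbn helps to hold on the large subunit stood a little lower in the knock-out. Ltn1 read 9.01, 9.26 and 9.01 in the knock-out, against 9.26, 9.42 and 9.27 in w1118. Knock-out array 2 and w1118 array 1 met at 9.26, and the other knock-out arrays lay below all w1118 arrays. The difference was −0.23 (SE 0.10, 95% interval −0.45 to −0.00472, unadjusted p = 0.0463, adjusted p = 0.258 by limma), and it did not pass the threshold. It was below 0 in each numbered pair, at −0.25, −0.16 and −0.27. In the fit blocked by replicate number the SE was 0.07 and the adjusted p was 0.131.

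The ATPase and its adaptors were measured next. TER94 read 11.94, 12.15 and 12.01 in the knock-out, against 12.05, 12.23 and 11.99 in w1118, and the ranges overlapped. In both genotypes array 2 was the highest, and the difference was −0.06 (95% interval −0.28 to 0.16, adjusted p = 0.793), with its sign turned to 0.01 when each array was centred on its median. Npl4, the adaptor that binds ubiquitin chains together with Ufd1, read 9.18, 9.22 and 9.08 in the knock-out, against 8.90, 9.04 and 8.87 in w1118. The genotypes did not overlap, with a gap of 0.05 between the nearest arrays, which is less than the SD of either genotype (0.0692 in the knock-out and 0.0893 in w1118). The difference of Npl4 was 0.23 (SE 0.08, 95% interval 0.04 to 0.41, unadjusted p = 0.0222, adjusted p = 0.175). Ufd1 read 9.93, 9.72 and 9.63 in the knock-out, against 9.56, 9.52 and 9.59 in w1118. These values did not overlap either, by a gap of 0.04, and the knock-out arrays were more spread (SD 0.154) than the w1118 arrays (SD 0.0362). Its difference was 0.20 (SE 0.09, 95% interval −0.01 to 0.41, adjusted p = 0.290). Knock-out array 1, which had the widest gap between control probe sets, was also the highest for Ufd1. Without it the difference of Ufd1 was 0.12, the lowest of its alternatives. The same array was the highest knock-out array for HBS1, Rack1 and eIF6. Without it the difference of eIF6 was 0.13, again the lowest of its alternatives. Whether RNA quality has a part in these values was not tested.

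The pair that splits stalled ribosomes had differences near 0. Pelo read 9.82, 10.23 and 9.93 in the knock-out, against 10.01, 9.999 and 10.02 in w1118. The w1118 arrays fell within the range of the knock-out arrays, whose SD was 0.209, against 0.0106 in w1118. The difference was −0.01 (95% interval −0.26 to 0.24, adjusted p = 0.965), and it was 0.06 with arrays centred on their medians. HBS1 read 10.26, 10.08 and 9.96 in the knock-out, against 10.18, 10.10 and 10.03 in w1118, so the w1118 readings again lay inside the knock-out range. Array 1 was the highest in both genotypes. The difference of HBS1 was −0.000599 (95% interval −0.22 to 0.22, adjusted p = 0.998), or 0.07 with arrays centred on their medians.

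The differences of eRF1, Rack1 and eIF6 lay above 0. The release factor eRF1, which reads stop codons and is related in sequence to pelo, read 11.77, 11.81 and 11.86 in the knock-out, against 11.66, 11.62 and 11.61 in w1118. The gap between the nearest arrays was 0.12, wider than the SD of either genotype (0.0418 in the knock-out and 0.0232 in w1118). The difference was 0.18 (SE 0.07, 95% interval 0.03 to 0.34, unadjusted p = 0.0261, adjusted p = 0.191). Its probe set carries the suffix that Affymetrix gives to sets whose probes match several transcripts, so the reading may not be of eRF1 alone. Rack1, a scaffold protein of the small subunit that yeast and mammalian cells need to deal with stalls, read 13.73, 13.69 and 13.72 in the knock-out, against 13.67, 13.64 and 13.66 in w1118. It had the smallest spread of the 10 genes, a pooled SD of 0.0171, and its genotypes were separated by a gap of 0.02. The difference was 0.05 (95% interval −0.10 to 0.20, adjusted p = 0.733), or 0.13 with arrays centred on their medians and 0.03 with quantile normalisation. Readings of Rack1 lay within 1 log2 of the top of the arrays, between 14.43 and 14.52, where signals may be compressed. The factor eIF6 read 9.99, 9.89 and 9.90 in the knock-out, against 9.74, 9.74 and 9.81 in w1118. Its genotypes did not overlap, the gap was 0.09, and the difference was 0.16 (SE 0.07, 95% interval 0.00125 to 0.32, unadjusted p = 0.0486, adjusted p = 0.263).

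In all, 5 of the 9 partners had every knock-out array above every w1118 array, and 0 had every knock-out array below. Over all genes 28.8% were separated, 15.7% in the upward direction and 13.1% in the downward direction. Among the 3901 genes at least as bright as the dimmest partner the upward share was 20.9%. The 5 separated genes, Npl4, Ufd1, eRF1, Rack1 and eIF6, kept a difference above 0 in all 14 alternatives, and Ltn1 kept its difference below 0. For separated genes the sign cannot turn when arrays are left out or weighted. Nor can it turn with a filter, a replicate block, another variance model or the mean of probe sets. Only median centring and quantile normalisation could have turned the sign of these 5 genes. The count was 5 when arrays were centred on their medians, where the share over all genes was 22.2%. Without knock-out array 1 it was 5 (19.8%), but separated genes stay separated when an array is dropped, so it could not have fallen. With quantile normalisation it was 4 (16.5%), and Rack1 then overlapped while Ltn1 was separated downward. These 3 settings were chosen after the data were seen. Since none of the 9 passed the adjusted threshold, the count stands as a description of these arrays.

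**Figure D2:**
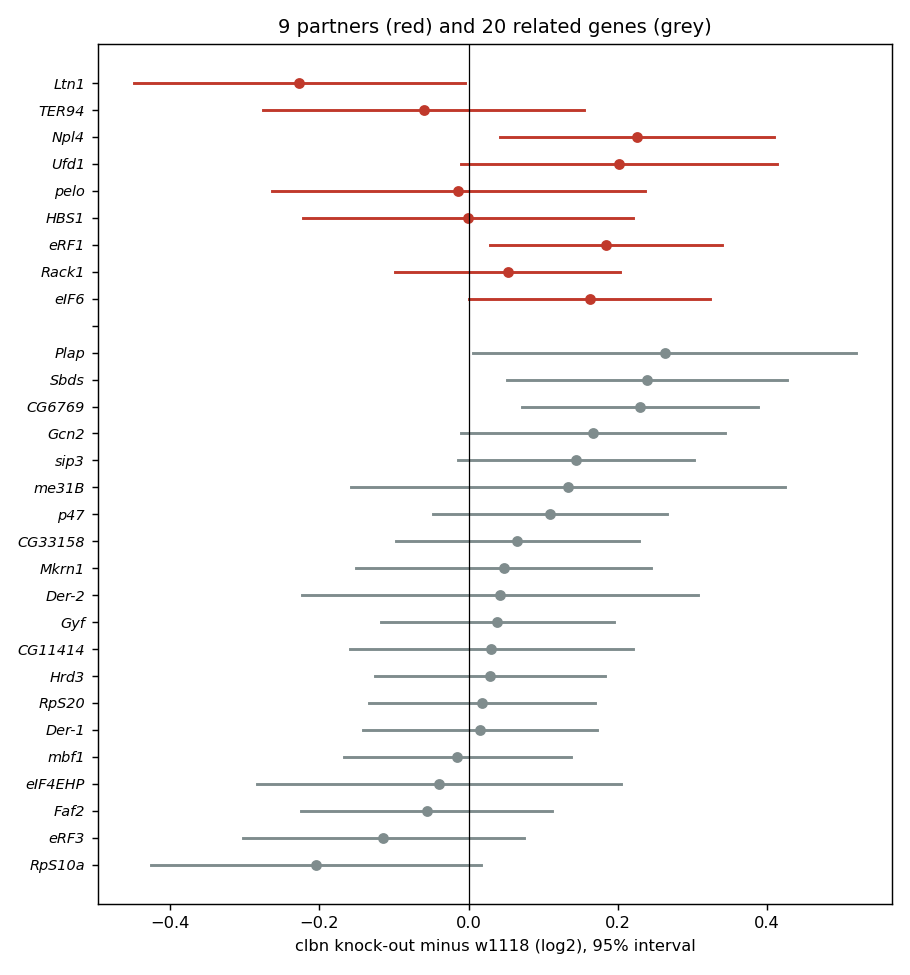
Differences in log2 expression, clbn knock-out minus w1118, for the 9 partners (red, upper block) and the 20 related genes (grey, lower block). Points are the differences and lines the unadjusted 95% intervals. The partners lie between −0.23 and 0.23, and the related genes between −0.20 and 0.26.

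Arrays that share a replicate number deviated from their genotype means together, so differences within numbered pairs were also read. For 6 of the 9 partners all 3 pair differences had the same sign, against 50.2% of all genes and 56.9% of the genes at least as bright as the dimmest partner. These were Ltn1 downward and Npl4, Ufd1, eRF1, Rack1 and eIF6 upward. The upward genes are the 5 separated ones, and full separation forces the same sign in every pair. Only Ltn1 thus adds to the earlier count. Rack1 gave 0.06, 0.04 and 0.06 in the 3 pairs. The other genes were less even, and Ufd1 gave 0.37, 0.20 and 0.04. Pelo gave −0.18, 0.23 and −0.09, HBS1 gave 0.08, −0.01 and −0.07, and TER94 gave −0.11, −0.08 and 0.02. For 5 partners the highest array had the same replicate number in both genotypes. This held for 42.3% of all genes and 46.3% of those at least as bright as the dimmest partner. For 3 of the 5, Ltn1, TER94 and Npl4, that number was 2. Array 2 was the highest in both genotypes for 1651 of all 11982 genes and 715 of the 3901 bright ones.

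**Figure D3:**
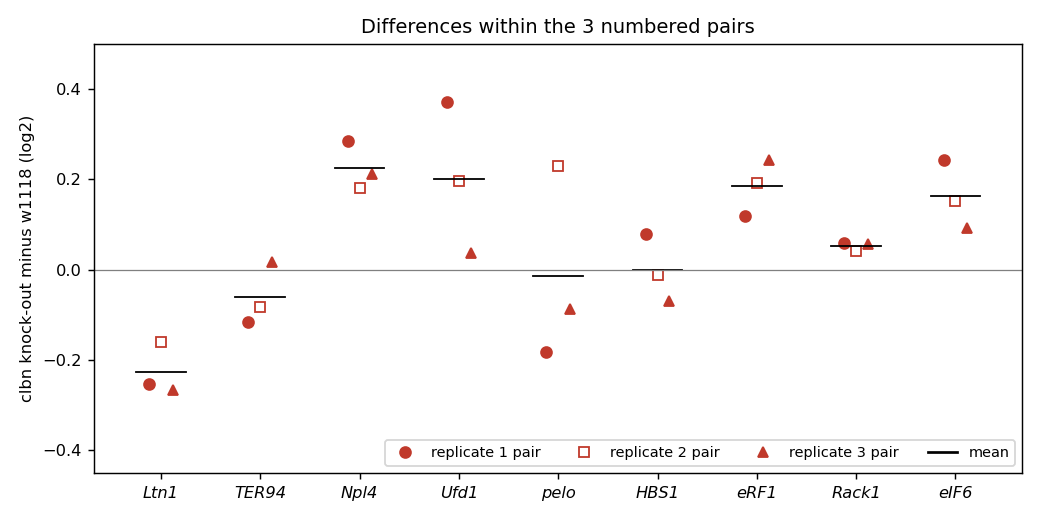
Difference in log2 expression between the knock-out and w1118 arrays of equal replicate number, for the 9 partners, with the mean difference as a black line. All pair differences lie between −0.27 and 0.37, and pelo, HBS1 and TER94 have pairs on both sides of 0.

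A further 20 genes of stall recognition, release, eIF6 removal and TER94 function were read in the same fit. None was called by limma. The number with an unadjusted p below 0.05 was 3, all above 0, against 11.8% of all genes with such a p above 0. In 5 of the 20 all knock-out arrays lay above all w1118 arrays, against 15.7% of all genes and 20.9% of those at least as bright as the dimmest partner. Of the 20, 15 had a difference above 0 and 5 below, and their median was 0.04. Over all genes 56% lay above 0, with a median of 0.02. Among the genes at least as bright as the dimmest partner 62.2% lay above 0, with a median of 0.05. By role, the values were −0.04 to 0.17 for the 7 genes of stall recognition and repression, which included Gyf, mbf1 and Gcn2. They were −0.06 to 0.26 for 7 genes of TER94 adaptors and of the degradation path from the endoplasmic reticulum, and 0.07 and 0.24 for the 2 genes linked to removal of eIF6. The lowest values, named after they were seen, were those of RpS10a, a small-subunit protein gene, at −0.20 (adjusted p = 0.302), and of the release factor eRF3 at −0.11 (adjusted p = 0.510). RpS10a was dim, with readings from 5.28 to 5.70, below the median of every array. The other 2 genes of the group that held RpS10a were at 0.02 (RpS20) and 0.23 (CG6769).

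The 3 related genes with the largest differences all lay above 0. Plap, the fly homologue of the human p97 cofactor PLAA, read 9.19, 9.23 and 8.98 in the knock-out, against 8.85, 9.05 and 8.70 in w1118. Its genotypes overlapped, and the difference was 0.26 (SE 0.11, adjusted p = 0.257). Sbds, homologue of a human protein that helps to remove eIF6 from new large subunits, read 9.01, 8.91 and 8.79 in the knock-out, against 8.66, 8.62 and 8.71 in w1118. Its genotypes did not overlap, and the difference was 0.24 (SE 0.08, adjusted p = 0.163), beside 0.16 for eIF6 itself. CG6769, which RefSeq lists under the synonym Vms1, the name of a yeast factor that frees unfinished chains from the large subunit, read 9.16, 9.06 and 9.08 in the knock-out, against 8.86, 8.86 and 8.89 in w1118. It was separated by genotype, with a difference of 0.23 (SE 0.07, unadjusted p = 0.0101, adjusted p = 0.120).

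The genes that followed Clbn most closely over the 6 arrays were sought by Pearson's r with its probe set, among 689 other genes whose arrays spanned at least 1 log2. None of the 9 partners spanned that much, so they were not part of this search. The arrays fall into 2 genotypes that these genes separate, so r mostly reads the genotype difference, and 60 genes had r above 0.95, while 39 had an r of the opposite sign past the same size. The 4 highest were CG11893 (r = 0.996), the heterochromatin protein gene HP1e (0.996), CG31176 (0.994) and CG32485 (0.994), the first 3 on arm 3R with Clbn and the last on 3L. CG11893 read 3.73, 3.53 and 3.54 in the knock-out, and HP1e read 3.87, 3.86 and 3.49, all below the first quartile of their arrays. CG31176 read 7.81, 7.95 and 7.87 in the knock-out, against 9.67, 9.74 and 9.84 in w1118. It was thus well above the dim range in both genotypes, and its difference was −1.87 (SE 0.08, adjusted p = 2.09e-05). CG32485 read 7.98, 8.01 and 7.92 in the knock-out, against 8.98, 8.95 and 9.05 in w1118, a difference of −1.03 (SE 0.07, adjusted p = 0.00027). The 2 with the most opposite pattern were eIF4E3, a relative of the cap-binding factor eIF4E (r = −0.997), and Dscam4, of the Dscam family of cell adhesion proteins (r = −0.997), both on 3L. Dscam4 read 6.60, 6.79 and 6.66 in the knock-out, against 5.24, 5.11 and 5.03 in w1118, a difference of 1.56 (SE 0.09, adjusted p = 0.000104).

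The partners lie on both large autosomes. Npl4 is on arm 3R with Clbn, Ltn1, HBS1, Ufd1 and eRF1 are on 3L, pelo and Rack1 on 2L, and TER94 and eIF6 on 2R. On chromosome 3, which carries clbn, 7.09% of 5318 genes were called, against 2.35% of 6505 genes on X and 2. Between Clbn and Npl4 RefSeq places 74 protein-coding genes, of which 66 were measured and 8 were called. With 1 stock per genotype, the loss of clbn and any further genetic difference of the knock-out stock cannot be told apart as sources of a difference in another gene.

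Embryos of 0 to 24 h mix all stages, and lists of stage and tissue markers were read on the same arrays. The lists were chosen with earlier results of these data known, so their means and counts are descriptions only. Over all genes 2.63% were called lower and 1.88% higher. Both early and late markers gave clear signals, with early zygotic markers up to 10.51 and muscle markers up to 12.66. Markers of adult female tissue lay at 3.64 to 5.91. The mean of the early zygotic markers overlapped between genotypes, where the list averaged, relative to its own mean over the 6 arrays, 0.32, 0.44 and −0.58 in the knock-out and −0.15, 0.40 and −0.43 in w1118, and none of the 11 measured was called. Among them zen was lower in the knock-out and did not overlap, at 7.40, 7.59 and 6.63 in the knock-out, against 8.16, 8.67 and 8.06 in w1118 (difference −1.09, adjusted p = 0.0677 by limma). Of the other early zygotic markers Sry-alpha (−0.27) and slam (−0.03) also lay below 0, and the rest lay above 0. Without zen the list was at −0.53 to 0.50 in the knock-out and −0.50 to 0.35 in w1118. For the mean of the whole list array 2 was the highest in both genotypes, as it was for Ltn1, TER94 and Npl4. Late cuticle markers were at −0.42 to −0.29 in the knock-out and 0.32 to 0.45 in w1118, with 2 of 5, Cpr65Av (−1.35) and Cpr100A (−1.75), called lower. Without these 2 genes the cuticle list was at −0.15 to −0.01 in the knock-out and 0.03 to 0.17 in w1118. Muscle markers were at −0.36 to −0.18 in the knock-out and 0.19 to 0.36 in w1118, with 2 of 4 called lower. Midgut markers were at −0.56 to −0.22 in the knock-out and 0.12 to 0.60 in w1118, with 2 of 5, LysX (−2.42) and lambdaTry (−0.68), called lower. Without LysX the midgut list overlapped, at −0.35 to −0.02 in the knock-out and −0.14 to 0.46 in w1118. It was still lower in each numbered pair, at −0.20, −0.35 and −0.02 in the knock-out, against 0.26, −0.14 and 0.46 in w1118. As single genes, lambdaTry and Jon44E (−0.42, adjusted p = 0.0635 by limma) were also separated downward, while alphaTry and betaTry overlapped. The lists without their leading genes were computed after the data were seen. Neuronal markers were at −0.30 to 0.01 in the knock-out and 0.05 to 0.28 in w1118, with 0 of 5 called. In the fit blocked by replicate number, elav (adjusted p = 0.0204), para (0.0441), the muscle gene Tm2 (0.0458) and zen (0.0128) were called lower as well. Maternal markers were at −0.06 to 0.41 in the knock-out and −0.32 to 0.03 in w1118, with 0 of 6 called. Among 6 testis markers Tektin-C alone was called (3.37), and the other 5 had differences between −0.03 and 0.17. The part of stage and tissue makeup in the small differences of the partners was not tested.

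**Figure D4:**
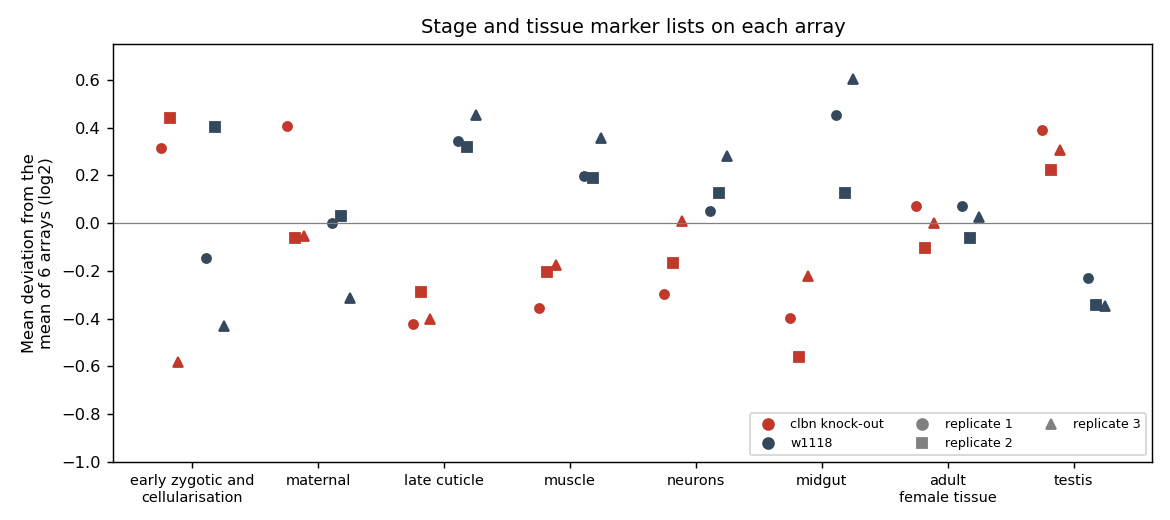
Mean deviation of each stage or tissue marker list from its mean over the 6 arrays, in log2, with clbn knock-out in red on the left and w1118 in dark blue on the right of each list; symbols mark the replicate number. The cuticle, muscle, neuronal and midgut lists lie lower on all 3 knock-out arrays. Without LysX the midgut list overlaps between genotypes but stays lower in each numbered pair. The early zygotic list is highest on array 2 of both genotypes.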

How the data were processed

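Total RNA of 6 embryo samples was labelled with biotin and hybridised to Affymetrix arrays, per the labels' protocols. The deposited table holds 1 log2 value per probe set and array; the log2 scale was read from the values. The affy software is named in the submitters' processing notes; how background was corrected and arrays were normalised is not stated in the sources used here. Values were used as deposited, without the 183 Affymetrix controls.

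Probe sets were named from the platform annotation: 13647 of 18769 had 1 symbol, and 402 had several and were not used for naming. A gene was read by its brightest probe set. limma 3.58.1 (R 4.3.3; lmFit, eBayes, no covariate) was fitted to all 18769 probe sets, with Benjamini-Hochberg adjustment over them and calls at 0.05. The fit was tested on simulated data. Equal-numbered arrays deviated together (r = 0.252, 0.227 and 0.390), so the numbers were taken as pairs in an alternative fit. The members and lists were chosen with earlier results of these data known. Besides the members, genes named are related genes that were called (or, as here, the 3 of largest difference) and the 4 most and 2 least like Clbn. Tables and plots were made in Python 3.11.15 with pandas 2.3.3 and matplotlib 3.10.9.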

Additional observations from a re-analysis of the deposited data

How the results depend on the processing

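Over 14 alternatives Clbn was called in each (difference −3.07 to −2.75, adjusted p from 7.73e-06 to 0.00128), none of the 9 partners was called in any of 126 recomputed values, and none of the related genes tested was called (20 genes, or 19 with probe sets above the median only). The count of probe sets called, 668, was 1539 with array weights and 978 with the replicate block, which changed no call of the 10 genes. Leaving out w1118 array 1 gave 190, leaving out w1118 array 3 gave 256, and dropping knock-out array 2 or 3 gave 357 or 344, within a range of 190 to 607 over all arrays left out singly. Leaving out an array takes samples from the fit. Differences near 0 changed sign. Pelo was at 0.029 with array weights, 0.059 with median centring and −0.130 to 0.0716 over the arrays left out. HBS1 was at 0.0721 with median centring and −0.0812 to 0.0705 over the arrays left out. TER94 was at 0.0126 with median centring and −0.118 to 0.0086 over the arrays left out. The smallest adjusted p among the partners was 0.0678, for Npl4 with array weights. Signals of Clbn in the knock-out lay between the first quartile and the median of their arrays. Whether they stood above background was not tested, which leaves the size of its fold uncertain.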
